A study of Mus musculus with 17 samples.

Results

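Hnf4a, Hnf4g, Pax2, Pax8, Lhx1, Emx1, Emx2 and Tfap2b, 8 of the 55413 annotated mouse genes, encode transcription factors of the renal epithelium. They were taken as a named list, and every position of peak chromatin accessibility from 10 kb upstream of each gene to its end was examined in 17 kidney libraries. The libraries were made by ATAC-seq, in which a transposase cuts open chromatin and the fragments are sequenced, from 20000 kidney cells each. All mice were male, entered the study at 8 weeks of age and were treated for 6 weeks. The Ctrl group held C57BL/6 wild-type mice given saline (n = 5). The Case group held db/db mice of the strain BKS.Cg-Dock7m +/+ Leprdb/J given saline (n = 6). The Dapa group held db/db mice of the same strain given the SGLT2 inhibitor dapagliflozin at 1 mg/kg/day (n = 6). Both db/db groups lack a functional leptin receptor and carry the BKS background, so diabetes, genotype and strain cannot be told apart in any comparison with Ctrl.

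Most of these factors have a known role in the kidney or in its development. HNF4A and HNF4G are related nuclear receptors that bind direct repeats and drive genes of the proximal tubule. PAX2 and PAX8 are paired-domain factors that act together with the LIM-homeodomain factor LHX1 when kidney epithelium forms, and PAX8 is still made along the adult nephron. EMX1 and EMX2 are homeodomain factors, of which EMX2 is needed for the ureteric bud. TFAP2B, an AP-2 factor, acts in the distal tubule. ATAC-seq shows whether DNA at and around these genes was open, not how much of each factor was made.

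The lists were described by 3 quantities. A summit is the base at which a called peak is highest, and the number of summits in a gene's window was counted in each library. Because lists differed in length and the longest held 56659 summits, each library was cut to as many of its highest-scoring summits as the shortest list held, called the equal-length list. The within-list percentile places a summit in its own library's ranking, with 100 for the highest score. A consensus region is a set of summits, each widened by 250 bp to both sides, that merged across libraries and came from at least 2 of them. There were 52424 such regions in all and 7860 of them were found in all 17 libraries. Sequencing depth is unknown, so no counting interval is given. In whole tissue, fewer cells of a type and less open chromatin per cell cannot be told apart.

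The windows of the 8 genes held 438 summits in the equal-length lists, or 522 when every deposited summit was kept, and 39 consensus regions. Of these regions, 22 lay in introns, 12 upstream of the gene, 3 in a 5′ UTR, 1 in a coding exon and 1 in a 3′ UTR. Another 13 summits were each found in a single library and belonged to no consensus region. The sequences around the summits that the results turn on are shown here, on the coding strand of each gene, with the coordinates in mm10 and the bases taken from RefSeq GRCm38.p6. Capitals mark a match to one of the 8 motifs searched, and a run was ended where an annotated exon begins. The labels are short and do not hold for every library. The far intronic Pax2 region was found in 4 Case and 4 Dapa lists, not in all db/db lists. No rank difference named in a label passed adjustment, and Case 3 ranked the Hnf4a intronic region below every Ctrl library.

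Hnf4a P1 (chr2:163547048-163547168, 79 bp from the nearest annotated start, open in every library): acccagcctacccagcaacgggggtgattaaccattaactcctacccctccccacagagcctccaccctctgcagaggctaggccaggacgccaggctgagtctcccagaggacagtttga
Hnf4a intronic (chr2:163535159-163535279, higher-ranked in db/db lists): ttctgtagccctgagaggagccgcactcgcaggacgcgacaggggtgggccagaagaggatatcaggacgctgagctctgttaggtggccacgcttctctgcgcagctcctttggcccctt
Hnf4g promoter (chr3:3507925-3508029, missing from some db/db lists): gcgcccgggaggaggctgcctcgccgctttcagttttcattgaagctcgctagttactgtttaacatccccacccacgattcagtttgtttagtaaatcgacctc
Hnf4g intronic (chr3:3613707-3613827, lower-ranked in db/db lists): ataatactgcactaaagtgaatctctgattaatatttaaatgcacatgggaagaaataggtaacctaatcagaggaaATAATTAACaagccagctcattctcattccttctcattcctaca
Hnf4g second intronic (chr3:3615505-3615625, found mainly in Ctrl): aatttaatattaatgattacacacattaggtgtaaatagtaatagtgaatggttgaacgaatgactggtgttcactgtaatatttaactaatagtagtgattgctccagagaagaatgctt
Pax2 upstream (chr19:44750890-44751010, the highest-ranked Pax2 region): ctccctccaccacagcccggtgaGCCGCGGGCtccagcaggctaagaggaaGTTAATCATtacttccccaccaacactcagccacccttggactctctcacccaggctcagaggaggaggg
Pax2 far intronic (chr19:44834766-44834886, found in db/db lists): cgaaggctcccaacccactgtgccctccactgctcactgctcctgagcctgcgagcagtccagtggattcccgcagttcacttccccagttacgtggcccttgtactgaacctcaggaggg
Pax8 promoter (chr2:24475600-24475671, open in every library): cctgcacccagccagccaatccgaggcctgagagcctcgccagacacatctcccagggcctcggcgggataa
Lhx1 promoter (chr11:84525984-84526104, found in 16 libraries): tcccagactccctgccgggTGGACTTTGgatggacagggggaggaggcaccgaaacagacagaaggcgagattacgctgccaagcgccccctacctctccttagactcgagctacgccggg
Emx1 upstream (chr6:85180110-85180230, found in 15 libraries): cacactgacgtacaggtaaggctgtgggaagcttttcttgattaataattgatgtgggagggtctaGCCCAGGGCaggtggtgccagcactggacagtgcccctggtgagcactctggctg
Emx2 upstream (chr19:59455816-59455936, found in every Ctrl library): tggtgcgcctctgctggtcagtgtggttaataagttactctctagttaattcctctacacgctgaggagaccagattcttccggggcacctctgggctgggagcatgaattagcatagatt

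Motifs were searched on both strands in the 301 bp centred on the median summit of each region. The HNF4-specific element CAAAGTCCA was present in 1 of the 39 regions, that of the Lhx1 promoter, and in 2.15% of all 52424 regions. The nuclear receptor half-site AGGTCA was present in 10 of the 39 regions and in 21.5% of all regions, while the full direct repeat AGGTCANAGGTCA, which holds that half-site, was in 0 of the 39 and in 0.0496% of all regions. GTTAATNAT, part of the HNF1 palindrome, was in 4 of the 39 regions and in 2.88% of all regions. Those 4 were the Hnf4g intronic region, the Pax2 upstream region, the Hnf4a region 53.6 kb from the gene start and the Pax8 region 53.9 kb from the gene start. The full palindrome GTTAATNATTAAC, which holds the shorter run, was in 0 of the 39 and in 0.0401% of all regions. The AP-2 palindrome GCCNNNGGC was in 7 of the 39 regions and in 15.1% of all regions, and the homeodomain core TAATTA in 5 of the 39 and in 5.53% of all regions. The paired-domain core GTCACGC was in 0 of the 39 regions and in 1.90% of all. In the Hnf4g intronic sequence the homeodomain core and the HNF1 run overlap. The 10 regions within 1 kb of a start of their own gene had a median GC content of 62.5%, against 61.8% in the 16874 regions near any start, and the other 29 had 52.5%, against 49.8% in the 35550 regions elsewhere.

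The 17 libraries carried the marks of kidney tissue, and 1 library stood apart. Of 12 kidney epithelium genes, between 6 and 10 had a summit in their window in each library. Their summed summits ran from 14 to 20 in Ctrl, from 15 to 26 in Case and from 15 to 22 in Dapa. Of 10 leukocyte genes, between 4 and 7 had a summit, with sums from 4 to 7 in Ctrl, from 6 to 12 in Case and from 5 to 8 in Dapa. Summed summits over 6 endothelial genes were at most 5 in each group, those over 6 fibroblast and mesangium genes at most 3, 7 and 4 in Ctrl, Case and Dapa, those over 4 liver genes at most 3 in each group, and those over 4 neuronal genes at most 10, 15 and 10. Case 3 held 18 summits in the 8 windows, whereas the other 16 libraries held between 22 and 31. It had 11 of the 20 regions that were found in 13 or more libraries (55.0%), whereas each other library had at least 17. Over the 15719 regions of the whole genome found in 13 or more libraries, Case 3 had 74.3% and the others between 87.2% and 97.7%. Case 3 also had the highest sums for leukocytes (12), kidney epithelium (26), fibroblasts and mesangium (7) and neurons (15). What part these marker sums and their differences between groups play in the results was not tested. Differences at the 8 genes that involve Case and had an unadjusted p under 0.05 are given with and without Case 3, as are the rank differences printed here that moved by over 1.5 times without it.

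**Figure D1:**
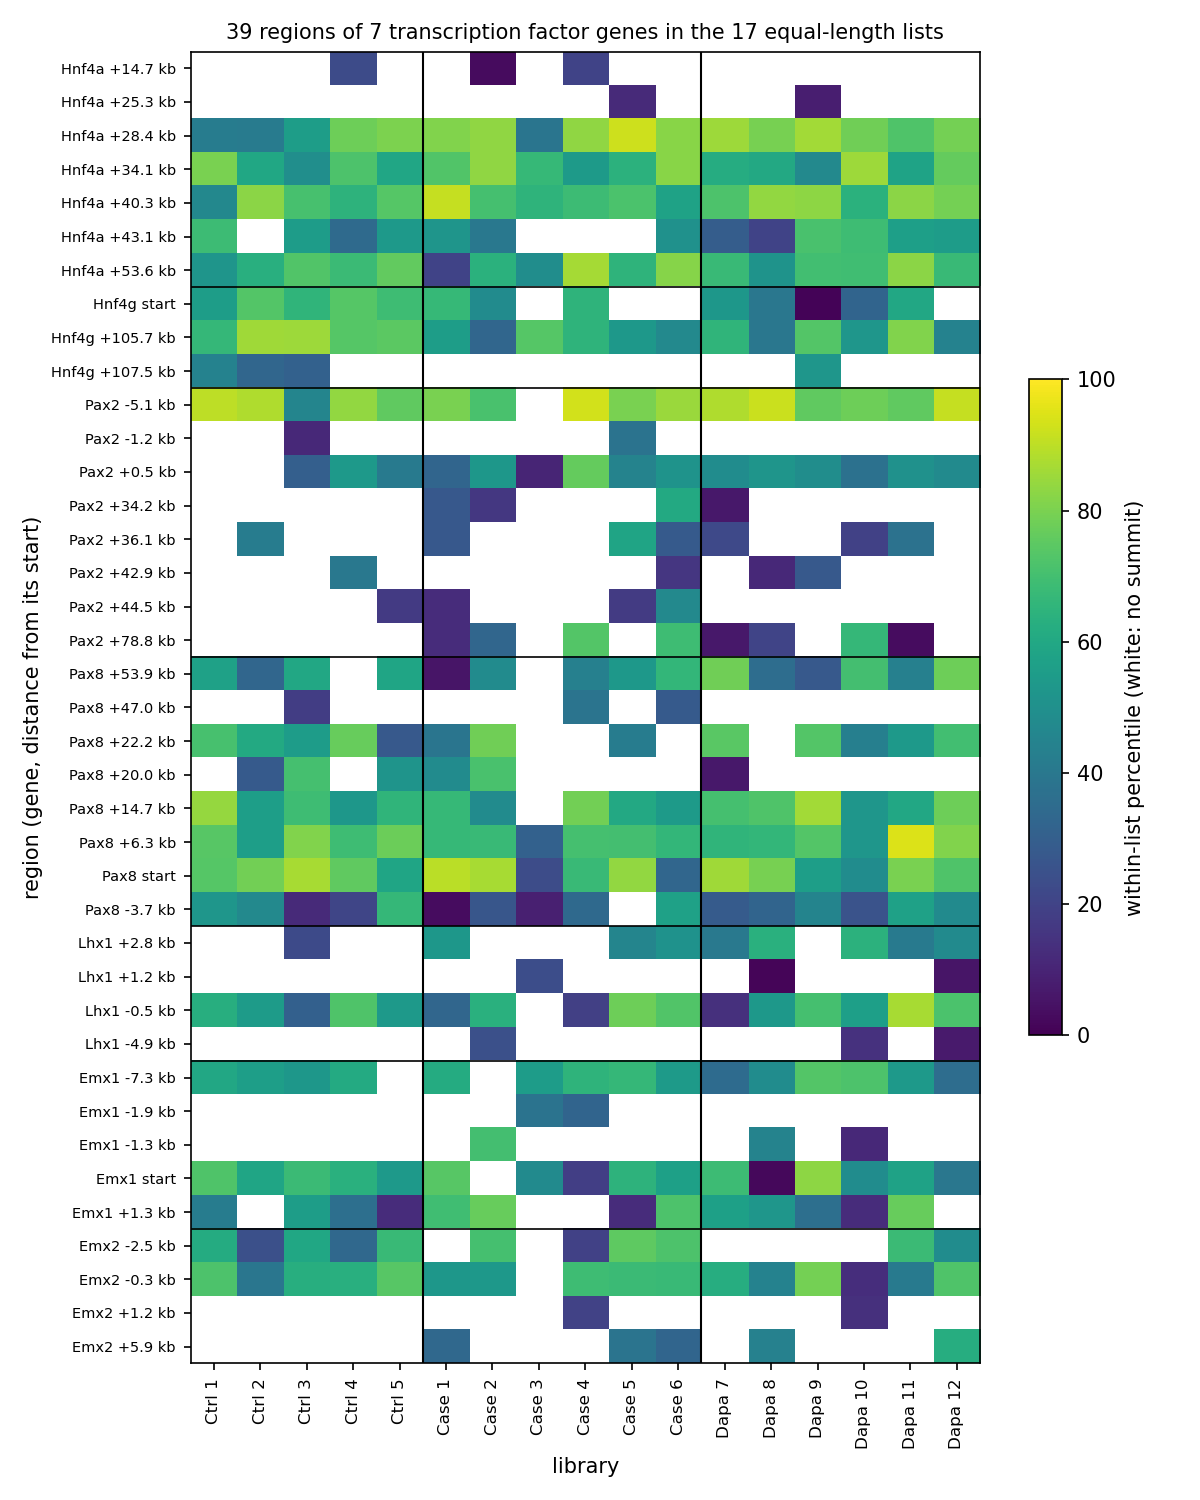
Within-list percentile (colour scale, 0 to 100) of the highest summit in each of the 39 regions of the 7 genes with summits (rows, labelled by the distance of the median summit from the gene start) in each of the 17 equal-length lists (columns), with white where a library had no summit. Case 3 has 13 of the 39 regions, and 7 rows are filled in all 17 columns.

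Of the 39 regions, 7 were found in all 17 libraries, 9 in 15 or 16, 8 in 7 to 14 and 15 in 2 to 6. The genes differed in how many summits they held and in how steady these were. Per 10 kb of window, the mean number of summits per library was 1.33 for Lhx1, 1.25 for Emx2, 1.11 for Emx1, 1.00 for Pax8, 0.781 for Hnf4a, 0.416 for Pax2, 0.129 for Hnf4g and 0 for Tfap2b. The first 4 of these genes lie close together in that order, and no test of their order was made. In number per window, Pax8 (6.53 summits per library) and Hnf4a (5.94) stood above 98.9% and 98.6% of protein-coding genes, whose windows vary in length.

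**Figure D2:**
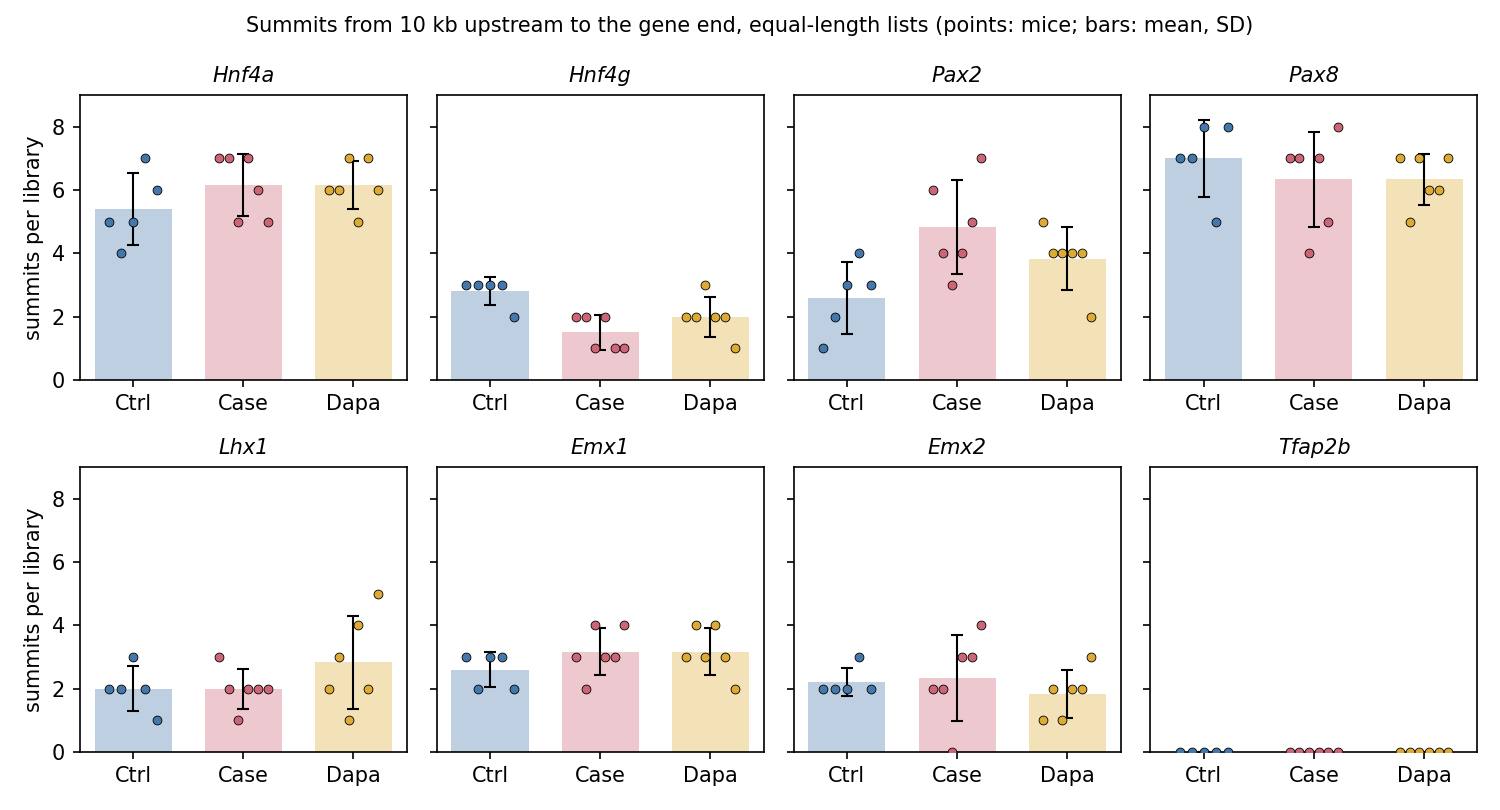
Number of summits per library (y axis) in the window of each of the 8 genes, in the equal-length lists, for Ctrl (n = 5), Case (n = 6) and Dapa (n = 6); points are mice, bars the mean and error bars the SD. Hnf4g lies at 2.80 in Ctrl and 1.5 in Case, Pax2 at 2.60 in Ctrl and 4.83 in Case, and Tfap2b at 0 in every library.

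The first question was whether the diabetic db/db kidneys differed from Ctrl in the number of open sites at these genes. Hnf4g had fewer summits in Case than in Ctrl and Pax2 had more, each by an unadjusted p under 0.05, and neither difference passed adjustment over all genes. Hnf4g, on the forward strand of chromosome 3 (ENSMUSG00000017688.14, chr3:3508030-3658052), had 3, 3, 3, 3 and 2 summits in Ctrl 1 to 5. Its lowest, median and highest counts were 1, 1.5 and 2 in Case and 1, 2.00 and 3 in Dapa. No Case library reached the 3 summits of most Ctrl libraries, and the groups overlapped at 2.

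The Hnf4g difference between Case and Ctrl was -1.30 summits (2.80 ± 0.447, SD, n = 5, against 1.5 ± 0.548, SD, n = 6; exact permutation test, 2-sided, p = 0.0173, adjusted p = 1.00). It was -1.2 without Case 3 (exact permutation p = 0.0317). For the 12 db/db mice of both groups against Ctrl it was -1.05 (exact permutation p = 0.0133, adjusted p = 0.899), and -0.982 without Case 3 (exact permutation p = 0.0188), with 4 of the 12 db/db libraries below every Ctrl library. Dapa differed from Ctrl by -0.800 (exact permutation p = 0.113) and from Case by 0.5 (exact permutation p = 0.364). With all summits kept, the means were 3.20 ± 0.837 in Ctrl, 1.83 ± 0.753 in Case and 2.00 ± 0.632 in Dapa (SD, n = 5, 6 and 6), so the order of the groups was the same, and Case against Ctrl had an exact permutation p of 0.0563.

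Pax2, on the forward strand of chromosome 19 (ENSMUSG00000004231.15, chr19:44756045-44837871), had 1, 2, 3, 4 and 3 summits in Ctrl 1 to 5. Its lowest, median and highest counts were 3, 4.5 and 7 in Case and 2, 4.00 and 5 in Dapa. Of the 6 Case libraries 3 lay above every Ctrl library, and the groups overlapped at 3 and 4. The difference between Case and Ctrl was 2.23 summits (2.60 ± 1.14, SD, n = 5, against 4.83 ± 1.47, SD, n = 6; exact permutation p = 0.0433, adjusted p = 1.00), and 2.60 without Case 3 (exact permutation p = 0.0238). For all 12 db/db mice it was 1.73 (exact permutation p = 0.0310, adjusted p = 0.998), and 1.85 without Case 3 (exact permutation p = 0.0247). Without Ctrl 1 or Ctrl 2 the db/db difference was 1.33 or 1.58, with exact permutation p-values of 0.104 and 0.0813. With 1 mouse left out, the exact permutation p of Case against Ctrl was under 0.05 without Case 3 or Ctrl 4. Without any 1 of the other 9 mice the difference lay between 1.80 and 2.40, with exact permutation p-values up to 0.0952.

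The Pax2 result rested on the cut to equal length. With all summits kept, Pax2 had 5.20 ± 0.837 summits in Ctrl, 6.17 ± 2.79 in Case and 5.17 ± 0.753 in Dapa (SD, n = 5, 6 and 6), and the difference between Case and Ctrl was 0.967 (exact permutation p = 0.550). The deposited lists held 37402 to 56659 summits in Ctrl, up to 51292 in Case and 32846 to 49442 in Dapa, so the cut took summits from every Ctrl list and none from the shortest Case list. With all summits tied at the end of a list kept, the difference was 2.03 (exact permutation p = 0.0779).

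The other 5 genes with summits gave no unadjusted p under 0.05 in any of the 4 comparisons. Hnf4a had 5.4 ± 1.14 summits in Ctrl, 6.17 ± 0.983 in Case and 6.17 ± 0.753 in Dapa, and Pax8 had 7.00 ± 1.22, 6.33 ± 1.51 and 6.33 ± 0.816 (SD, n = 5, 6 and 6). Lhx1 had 2.00 ± 0.707 in Ctrl, 2.00 ± 0.632 in Case and 2.83 ± 1.47 in Dapa, Emx1 2.60 ± 0.548, 3.17 ± 0.753 and 3.17 ± 0.753, and Emx2 2.20 ± 0.447, 2.33 ± 1.37 and 1.83 ± 0.753. Emx2 had no summit in Case 3.

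Of the 7 genes that could be tested, 1 had more and 1 had fewer summits in Case than in Ctrl by unadjusted p, and the same counts, 1 and 1, held for all db/db mice against Ctrl. Over all 28514 genes tested, 0.659% had more and 2.35% fewer in Case, and 0.985% more and 3.31% fewer in all db/db mice. None of the 7 passed in Dapa against Ctrl, where 0.624% of all genes had more and 1.72% fewer, or in Dapa against Case, where 0.417% had more and 0.277% fewer. The exact permutation test with Benjamini-Hochberg adjustment called 0 genes in any comparison, against 859, 1224, 668 and 198 genes at an unadjusted p under 0.05 in Case against Ctrl, all db/db mice against Ctrl, Dapa against Ctrl and Dapa against Case. With 5 against 6 mice the smallest p this test can give is 0.00433, which limits what adjustment over 28514 genes can call. The median difference over the 7 genes was 0.133 summits in Case against Ctrl, beside 0 over all genes tested.

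**Figure D3:**
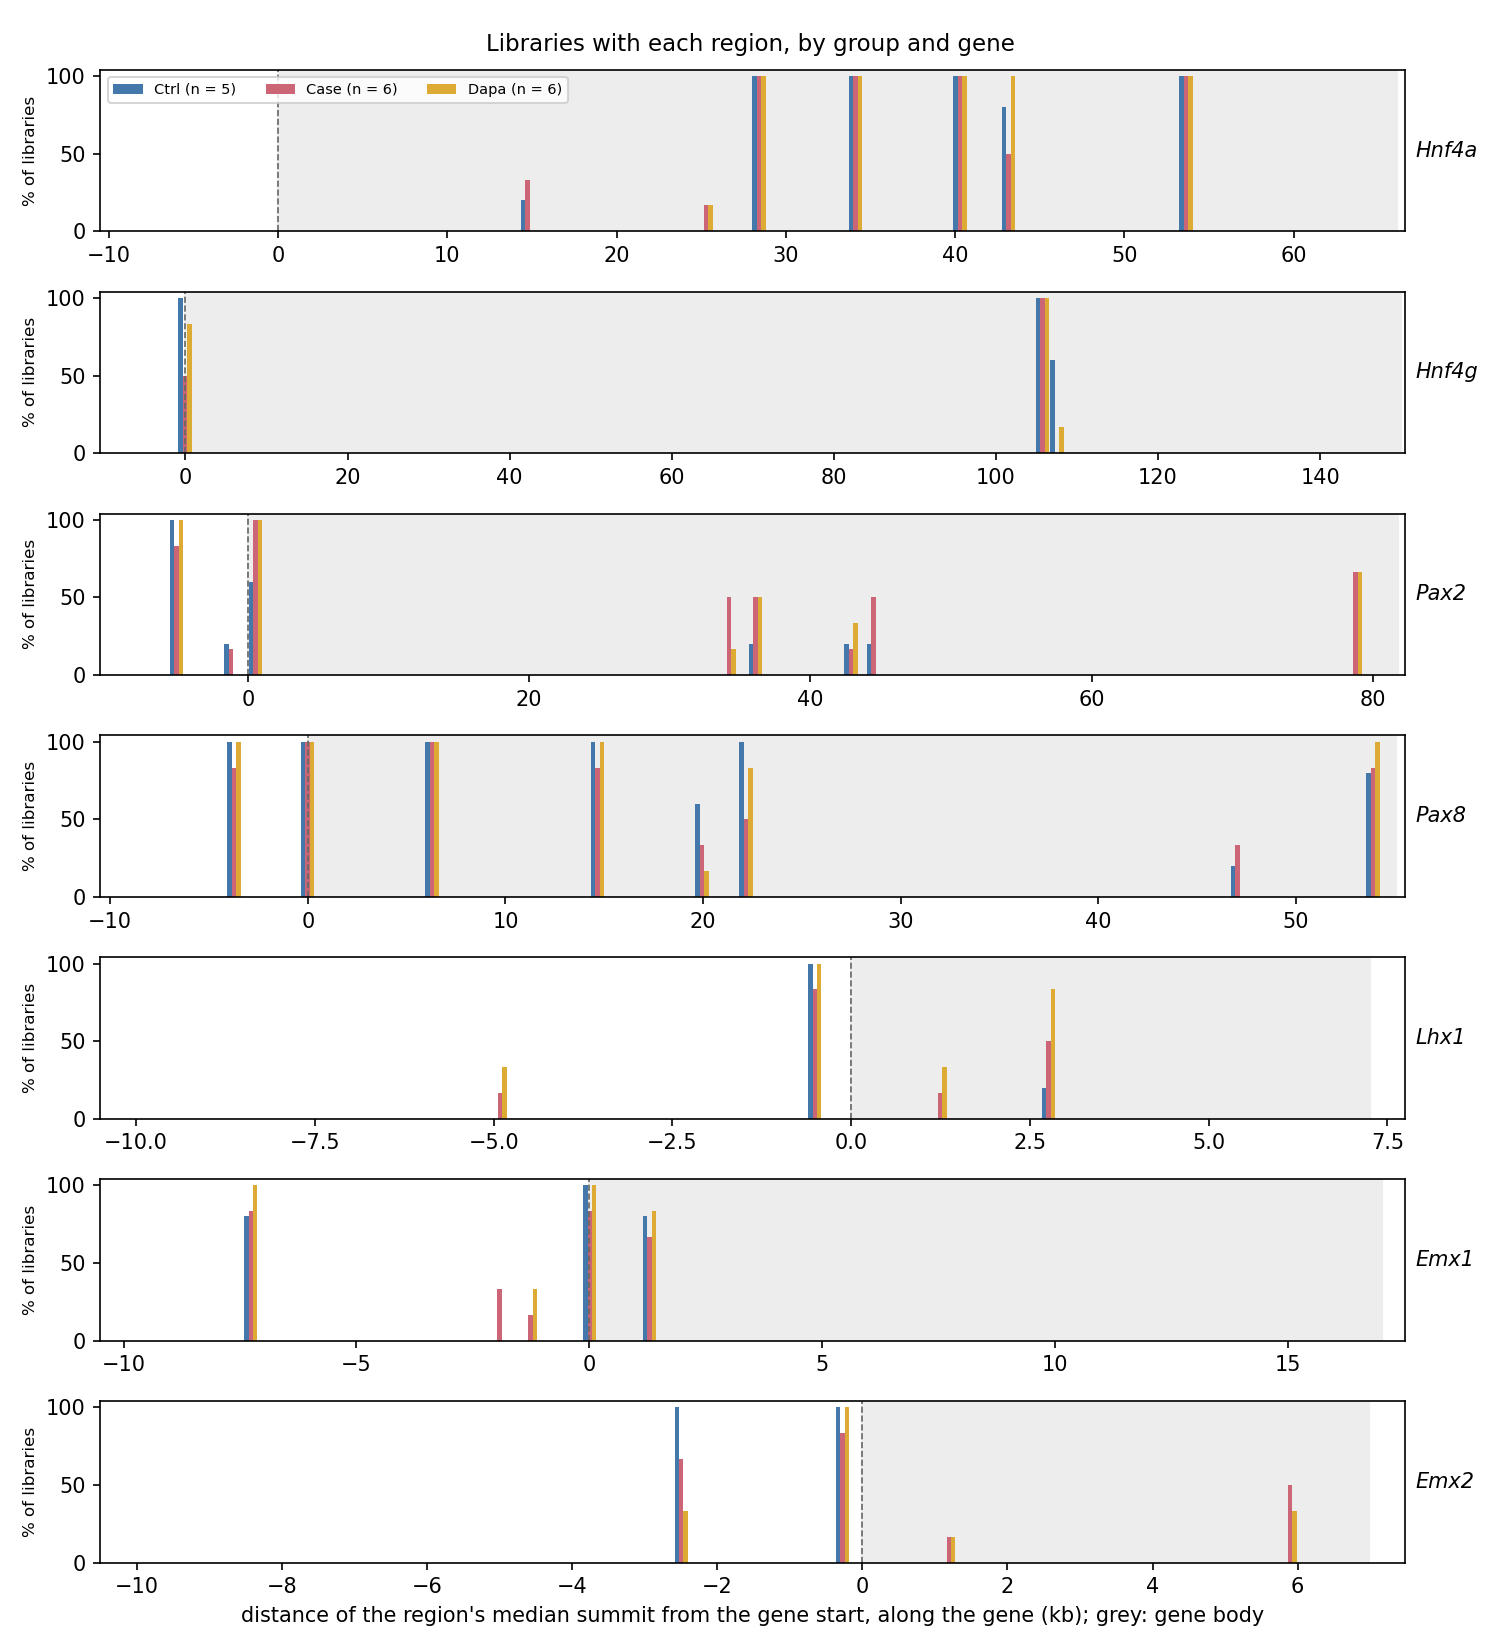
Share of libraries of each group (y axis, percent) with a summit in each of the 39 regions, placed by the distance of its median summit from the gene start (x axis, kb, along the direction of transcription), for Ctrl (n = 5), Case (n = 6) and Dapa (n = 6); the grey band is the gene body. At Pax2 the region 78.8 kb into the gene has bars for Case and Dapa only, and at Hnf4g the region at 107.5 kb has no bar for Case.

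The nuclear receptor gene Hnf4a, on the forward strand of chromosome 2 (ENSMUSG00000017950.16, chr2:163506808-163572910), has an upstream promoter, P2, known from pancreas and embryonic tissue, and a downstream promoter, P1, known from adult liver and kidney. Within 1 kb of the upstream start, at position 163506808, no library had a summit, also with all summits kept. The region at the downstream start (chr2:163546812-163547433, median summit 79 bp from the start at 163547187) was found in all 17 libraries, and its sequence is the run named Hnf4a P1. Its percentiles were 46.7 to 82.6 in Ctrl (median 70.8), 57.5 to 91.2 in Case (median 69.5) and 63.7 to 83.8 in Dapa (median 80.9), so the groups overlapped widely.

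Of the 7 Hnf4a regions, 4 were found in all libraries. Besides that at P1 these were intronic regions 28.4, 34.1 and 53.6 kb from the annotated gene start (chr2:163534870-163535606, chr2:163540557-163542348 and chr2:163560066-163560811), the first and the second of which lie before P1. The region at 34.1 kb is 765 bp from a start of Hnf4aos, an antisense gene, and the assay cannot assign it to either gene. A further intronic region (chr2:163549593-163550235), 135 bp from another Hnf4a start, was found in 4 of the 5 Ctrl libraries, 3 of the 6 Case libraries and all 6 Dapa libraries. The other 2 regions were found in 2 or 3 libraries.

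The Hnf4a region at 28.4 kb ranked higher in db/db lists than in Ctrl lists. In Ctrl 1 to 5 its percentiles were 42.0, 41.5, 55.6, 77.9 and 80.3. The lowest, median and highest were 39, 82.9 and 92.5 in Case and 72.5, 79.3 and 86.3 in Dapa. Of the 5 Ctrl libraries 3 were lower than all 6 Dapa libraries, and the only db/db library below them was Case 3, at 39. The difference of all db/db mice from Ctrl was 19.1 percentile points (SE 7.92, limma p = 0.0272, adjusted p = 0.273, exact permutation p = 0.0511), and 22.9 without Case 3 (limma adjusted p = 0.0999). Dapa lay above Ctrl by 20.7 (SE 9.02, limma p = 0.0341, adjusted p = 0.337, exact permutation p = 0.0519) and Case above Ctrl by 17.5 (SE 9.02, limma p = 0.0689, exact permutation p = 0.147), or by 25.0 without Case 3 (limma adjusted p = 0.147). With all summits kept, the db/db difference was 8.13 (limma adjusted p = 0.568). Without Ctrl 1, 2 or 3, the mice with the lowest Ctrl values, it was 14.6 to 18.1 and no longer under the unadjusted threshold. The difference of Dapa from Ctrl was also no longer under it without Ctrl 1, 2 or 3 or Dapa 7 or 9, at 16.2 to 19.7.

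Hnf4g, the paralogue of Hnf4a, had 3 regions. The Hnf4g promoter region (chr3:3507583-3508534, median summit 45 bp upstream of the start) was found in 5 Ctrl, 3 Case and 5 Dapa libraries, numbers at which Fisher's exact test of Case against Ctrl could not reach an unadjusted p under 0.05. Its percentiles in Ctrl 1 to 5 were 55.7, 73.2, 65.5, 73.8 and 69.0. They ran from 48.1 to 67.1 in the 3 Case libraries that had it and from 0.988 to 59.9 in the 5 Dapa libraries that had it, so that the Dapa library with the highest value lay below 4 of the 5 Ctrl libraries. Rank was not tested where a region was missing from some libraries.

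The Hnf4g intronic region (chr3:3613130-3614119, 105.7 kb from the start and 20383 bp from the nearest start of any annotated gene) was found in every library. Its percentiles in Ctrl 1 to 5 were 66.6, 85.7, 85.2, 73.8 and 74.8. The lowest, median and highest were 33.2, 54.5 and 73.5 in Case and 39.7, 59.1 and 80.9 in Dapa. Of the 12 db/db libraries 9 lay below every Ctrl library, 5 of them in Case and 4 in Dapa. The Case library that did not was Case 3. Case lay below Ctrl by a difference of -22.6 percentile points (SE 8.32, limma p = 0.0143, adjusted p = 0.252, exact permutation p = 0.00866), and by -26.3 without Case 3 (limma adjusted p = 0.189). The difference was -17.8 for Dapa against Ctrl (SE 8.32, limma p = 0.0462, adjusted p = 0.359, exact permutation p = 0.0563) and -20.2 for all db/db mice against Ctrl (SE 7.31, limma p = 0.0129, adjusted p = 0.207, exact permutation p = 0.0100), or -22.1 without Case 3 (limma adjusted p = 0.157). The Dapa difference was no longer under the unadjusted threshold without Ctrl 2, 3, 4 or 5 or Dapa 8, 10 or 12, at -18.7 to -13.9. Dapa and Case differed by 4.74 (SE 7.93, limma p = 0.557, exact permutation p = 0.602), or by 8.50 without Case 3 (limma adjusted p = 0.884).

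The second Hnf4g intronic region (chr3:3615256-3615875), 107.5 kb from the start, was found in Ctrl 1, 2 and 3, in no Case library and in Dapa 9. Its percentiles were 44.4, 33.2 and 31.0 in those Ctrl libraries and 52.4 in Dapa 9. The presence was 3 of 5 Ctrl against 1 of 12 db/db libraries (Fisher's exact test, 2-sided, p = 0.0525, adjusted p = 0.467). Keeping all summits added no library to it. The region had a GC content of 33.9%, higher than 0.357% of all regions, and the first Hnf4g intronic region had 39.2%.

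**Figure D4:**
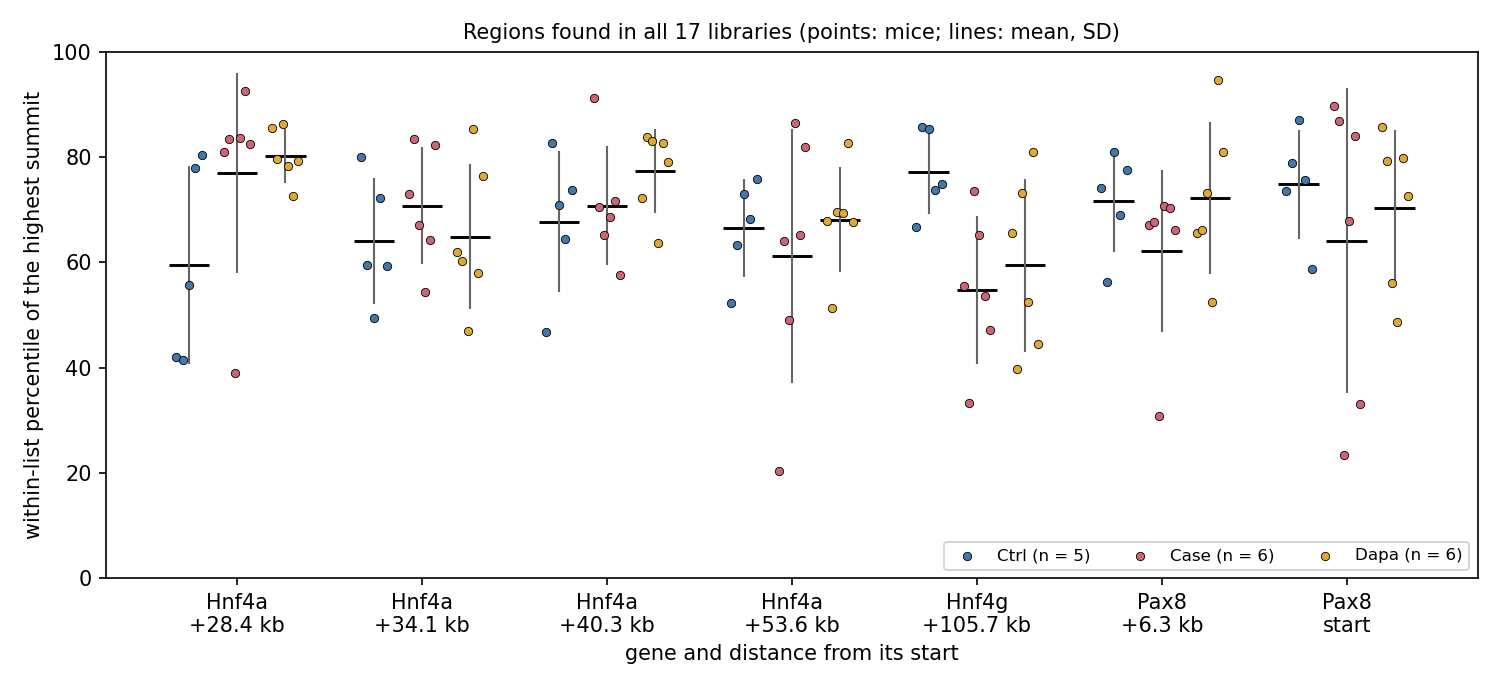
Within-list percentile of the highest summit (y axis) in the 7 regions found in all 17 libraries (x axis, gene and distance from its start), for Ctrl (n = 5), Case (n = 6) and Dapa (n = 6); points are mice, horizontal lines the mean and vertical lines the SD. The Hnf4g region lies at 77.2 in Ctrl, 54.7 in Case and 59.4 in Dapa, and the Hnf4a region at 28.4 kb at 59.5, 76.9 and 80.2.

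The paired-domain genes differed from each other in how constant their regions were. Pax8, on the reverse strand of chromosome 2 (ENSMUSG00000026976.15, chr2:24420560-24475599), had 8 regions, of which 6 were found in 13 or more libraries. The Pax8 promoter region (chr2:24474885-24475940, median summit 12 bp from the start) was found in every library. Its percentiles in Ctrl 1 to 5 were 73.5, 78.9, 87.0, 75.7 and 58.8. They ran from 23.4 to 89.7 in Case (median 75.8) and from 48.6 to 85.6 in Dapa (median 75.9), and the 2 lowest were those of Case 3, at 23.4, and Case 6, at 33.0. The other Pax8 region found in all libraries was intronic, 6.3 kb from the start (chr2:24468951-24469633), with percentiles of 56.2 to 81.0 in Ctrl, 30.9 to 70.7 in Case and 52.5 to 94.6 in Dapa. Case lay below Ctrl by a difference of -9.42 there (SE 8.17, limma p = 0.264, exact permutation p = 0.286) and of -10.7 at the promoter (SE 11.4, limma p = 0.362, exact permutation p = 0.463). Without Case 3 these differences were -3.19 and -2.56 (limma adjusted p = 0.896 and 0.954).

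Pax8 also had regions 3.7 kb upstream (chr2:24478364-24480462), 14.7 kb into the gene (chr2:24460619-24461289) and 53.9 kb into the gene (chr2:24421329-24422019), found in 16, 16 and 15 libraries. The last of these lies 1378 bp from an internal Pax8 start, and the region 3.7 kb upstream was missing from Case 5. A region 22.2 kb into the gene (chr2:24453099-24453727) was found in 5 Ctrl, 3 Case and 5 Dapa libraries, the same numbers as at the Hnf4g promoter, and could likewise not be tested in Case against Ctrl.

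Pax2 had 8 regions, of which 2 were found in 13 or more libraries and none in all 17. Its most constant region lay 5.1 kb upstream (chr19:44750643-44751237) and was missing only from Case 3. There the percentiles in Ctrl 1 to 5 were 90.2, 88.0, 45.7, 83.6 and 75.6, and they ran from 71.1 to 93.1 in the 5 Case libraries and from 75.6 to 91.9 in Dapa. The region at the start (chr19:44755942-44757146), in the 5′ UTR, was found in 3 Ctrl, 6 Case and 6 Dapa libraries, too many of the 17 for Fisher's exact test of all db/db mice against Ctrl to reach an unadjusted p under 0.05. With all summits kept it was found in all 17 libraries, so the Ctrl libraries that lacked it had it below the cut.

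The far intronic Pax2 region (chr19:44834519-44835168), 78.8 kb from the gene start and 1112 bp from a start of the neighbouring gene 1700039E22Rik, was the only one of the 39 with an unadjusted p under 0.05 in a presence comparison. It was found in 0 Ctrl, 4 Case and 4 Dapa libraries. Its percentiles ranged from 12.7 to 73.4 in Case and from 3.25 to 66.7 in Dapa, and in 3 of the 8 libraries they were below 15. All db/db mice against Ctrl gave p = 0.0294 (Fisher's exact test, 2-sided, adjusted p = 0.384), and p = 0.0256 without Case 3. Without any 1 of the 5 Ctrl mice Fisher's exact p was 0.0769, and with the summits tied at the end of a list dropped it was 0.102. The share of libraries with the region was higher by 0.667 in db/db than in Ctrl. That difference was 0.250 with a shorter list of top summits and with scores of at least 5 (Fisher's exact p = 0.515 for each). With all summits kept the region was found in 1 of 5 Ctrl and 9 of 12 db/db libraries (Fisher's exact p = 0.101). The remaining 5 Pax2 regions were each found in 2 to 7 libraries, and among them that at 36.1 kb (chr19:44791882-44792446) was found in 1 Ctrl, 3 Case and 3 Dapa libraries.

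The LIM-homeodomain gene Lhx1, on the reverse strand of chromosome 11 (ENSMUSG00000018698.15, chr11:84518284-84525535), had 4 regions. That at the promoter (chr11:84524820-84526354, median summit 509 bp upstream of the start and 360 bp from a start of the antisense gene Lhx1os) was found in 16 libraries, all but Case 3. Its percentiles in Ctrl 1 to 5 were 62.7, 54.8, 30.6, 72.3 and 53.9, and they ran from 18.8 to 77.8 in Case and from 13.7 to 86.9 in Dapa. A region 2.8 kb into the gene (chr11:84522498-84523054), 64 bp from an internal start, was found in 1 Ctrl, 3 Case and 5 Dapa libraries (Dapa against Ctrl, Fisher's exact test, 2-sided, p = 0.0801, adjusted p = 0.394). Keeping all summits added no library to it. The other 2 Lhx1 regions were found in 3 libraries each, in Case and Dapa only (all db/db mice against Ctrl, Fisher's exact p = 0.515, adjusted p = 0.883 for each). With 3 libraries this test cannot call a region found in db/db lists only.

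Of the EMX genes, Emx1, on the forward strand of chromosome 6 (ENSMUSG00000033726.8, chr6:85187438-85204462), had 3 regions in 13 or more libraries and Emx2 had 1. The Emx1 promoter region (chr6:85187142-85187799, median summit 12 bp from the start, in the 5′ UTR) was found in all libraries but Case 2. Its percentiles ran from 53.6 to 72.5 in Ctrl, from 18.7 to 74.2 in Case and from 2.09 to 82.9 in Dapa. The Emx1 region 7.3 kb upstream (chr6:85179473-85180519) was found in 4 Ctrl, 5 Case and 6 Dapa libraries, with percentiles of 53.0 to 61.2, 54.6 to 66.7 and 35 to 73.2. The intronic region at 1.3 kb (chr6:85188432-85189043) was found in 4, 4 and 5 of them.

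Emx2, on the forward strand of chromosome 19 (ENSMUSG00000043969.4, chr19:59458372-59465357), shares its window with starts of the antisense gene Emx2os. Its promoter region (chr19:59457735-59458849, median summit 273 bp upstream) was found in all libraries but Case 3, with percentiles of 39.4 to 74.0 in Ctrl, 53.0 to 69.0 in Case and 12.9 to 79.0 in Dapa. The Emx2 upstream region 2.5 kb from the start (chr19:59455581-59456174) was found in 5 Ctrl, 4 Case and 2 Dapa libraries (Dapa against Ctrl, Fisher's exact test, 2-sided, p = 0.0606, adjusted p = 0.394). Its percentiles in Ctrl 1 to 5 were 61.6, 24.3, 59.5, 33.9 and 67.9, and it was in Dapa 11 at 68.1 and Dapa 12 at 48.6. Keeping all summits added no library to it. A region in the 3′ UTR (chr19:59463986-59464601) was found in 3 Case and 2 Dapa libraries.

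Tfap2b, on the forward strand of chromosome 1 (ENSMUSG00000025927.13, chr1:19208914-19238576), had no summit in its 39.7 kb window in any of the 17 libraries, also with all summits kept. Among 21938 protein-coding genes, 14.6% had no summit in their window in any equal-length list and 9.09% had none when all summits were kept. With all summits kept, the nearest summit before the Tfap2b window lay a median of 22.6 kb from it (22.5 to 303 kb over the libraries). The nearest after the window then lay a median of 108 kb from it (6.68 to 894 kb), and 26.4 to 1194 kb in the equal-length lists. A called summit needs enough reads, so openness in a small share of the cells may have gone uncalled, which was not tested.

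Presence was compared for each region by Fisher's exact test. A region found in nearly all or very few libraries cannot reach an unadjusted p under 0.05, and only regions that can were tested. Of these, 1.20% were found in more and 8.14% in fewer db/db than Ctrl libraries at an unadjusted p under 0.05, and among the 39 regions at these genes 19 could be tested, of which 1, the far intronic Pax2 region, was found in more and 0 in fewer. The other 20, among them the 7 found in all libraries, could not pass. In Case against Ctrl the shares over all regions tested were 0.868% and 9.32%, in Dapa against Ctrl 1.23% and 6.60% and in Dapa against Case 0.944% and 0.236%. Only 6, 6 and 3 of the 39 regions could be tested in these 3 comparisons, and 0 of them passed. After Benjamini-Hochberg adjustment Fisher's exact test called 0 regions of the genome in each comparison, against 1162, 857, 2558 and 85 at an unadjusted p under 0.05 in Case against Ctrl, Dapa against Ctrl, all db/db mice against Ctrl and Dapa against Case.

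Rank was compared by limma in the 7860 regions found in all libraries, 7 of which belong to the 8 genes. In all db/db mice against Ctrl 1 of the 7 ranked higher and 1 lower at an unadjusted p under 0.05, beside 6.88% and 7.67% of all regions tested. In Dapa against Ctrl these counts were again 1 and 1, beside 6.12% and 7.46%, and in Case against Ctrl 0 and 1, beside 5.99% and 6.77%. In Dapa against Case they were 0 and 0, beside 3.18% and 2.71%. With adjustment limma called 40 regions of the genome in Case against Ctrl, 34 in Dapa against Ctrl, 72 in all db/db mice against Ctrl and 0 in Dapa against Case (463 at an unadjusted p under 0.05), and none of the 7 was among them. The comparisons of Case and of Dapa with Ctrl share the same 5 Ctrl mice, so their values at a region are not independent of each other.

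The other question was what dapagliflozin changed in db/db mice. At an unadjusted p under 0.05, the summit counts of these genes did not differ between Dapa and Case, nor did the ranks of their 7 regions found in all libraries. Presence could be tested at 3 of the 39 regions only, 1 of Pax2 and 2 of Emx2, and 0 passed. The largest differences in number with all libraries were at Pax2, -1.0 (exact permutation p = 0.286), and Lhx1, 0.833 (exact permutation p = 0.353). With 1 mouse left out they ran from -1.37 (without Case 3) to -0.567 (without Case 6) at Pax2 and from 0.40 (without Dapa 12) to 1.2 (without Dapa 9) at Lhx1, and without Case 3 the value at Emx2, -0.967, was larger in size than that at Lhx1, 0.633. In rank the largest with all libraries was at the Pax8 region at 6.3 kb, 10.1 percentile points (SE 7.79, limma p = 0.212, exact permutation p = 0.303), followed by 6.92 at the Hnf4a region at 53.6 kb (SE 9.14, limma p = 0.459, exact permutation p = 0.543). Without Case 3 these were 3.84 and 4.51 (limma adjusted p = 0.958 and 0.975), and without Case 1 the Hnf4a value was -1.26 (limma adjusted p = 0.991). A p above the threshold does not show that the groups are alike.

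Beside the 8 genes, 30 other transcription factors of renal epithelium were examined in the same way, of which 28 could be tested. In Case against Ctrl 0 had more and 2 had fewer summits at an unadjusted p under 0.05, beside 0.659% and 2.35% of all genes tested. In Dapa against Ctrl the counts were 0 and 2, beside 0.624% and 1.72%. In all db/db mice against Ctrl they were 0 and 2, beside 0.985% and 3.31%. The 2 with fewer were Bach2 and Sim1. Bach2 had 8.80 ± 2.17 summits in Ctrl, 5.50 ± 1.05 in Case and 5.33 ± 1.21 in Dapa (SD, n = 5, 6 and 6; all db/db mice against Ctrl, exact permutation p = 0.00259, adjusted p = 0.691). Sim1 had 1.4 ± 0.548, 0.167 ± 0.408 and 0.333 ± 0.516 (SD, n = 5, 6 and 6; exact permutation p = 0.00646, adjusted p = 0.728). In Dapa against Case 1 of the 28 had more and 0 had fewer, beside 0.417% and 0.277% of all genes tested. That 1 was Nr1h4, the bile acid receptor gene, with 2.67 ± 0.816 in Case and 4.83 ± 2.40 in Dapa (SD, n = 6 each; exact permutation p = 0.0455, adjusted p = 1.00). Esrrg, with 12.0 ± 2.12 summits in Ctrl, 9.00 ± 3.69 in Case and 11.2 ± 3.37 in Dapa, Mecom, with 2.60 ± 0.548, 2.00 ± 1.26 and 3.83 ± 1.83, and Ppara, with 5.4 ± 1.52, 6.67 ± 2.16 and 6.00 ± 0.894 (SD, n = 5, 6 and 6), passed in no comparison. Six2 and Irx1 had no summit in any equal-length list.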

How the data were processed

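The authors aligned ATAC-seq reads to mm10 with Bowtie2 through the ENCODE pipeline for ATAC-seq, dropped duplicate and blacklisted alignments, shifted reads for the transposase offset and called peaks with MACS2 in each library (versions not given in the sources used here). The deposited files list MACS2 summits each with a −log10 p-value or q-value as its score (which of them is not stated), used here only for ranking. Ties at the end of a list, up to 4351 summits, were broken by a seeded shuffle, and 6 of the 438 summits at the 8 genes had such a score.

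Gene windows came from GENCODE M21. Summit counts were compared by exact permutation tests, presence by Fisher's exact test and percentiles by limma 3.58.1 with a mean trend (R 4.3.3) on the 3 group means, all 2-sided, Benjamini-Hochberg adjusted over every gene or region tested at a threshold of 0.05. Presence was adjusted over regions whose library number allowed an unadjusted p under 0.05. Genes needed a summit in at least 2 libraries. The tests were checked on simulated data with changes larger than those reported at these genes, so the check does not show that smaller changes are detected. Each library is 1 mouse, and no batch is labelled. Read-based tests such as DiffBind were not run, since read counts were not used here. The genes, lists and tests were chosen with earlier results of these data known. All 8 genes were named, as were the 6 other factors with the largest differences. Named regions were each promoter region, those in all 17 libraries, those with an unadjusted p under 0.05 and a few more per gene. Alternatives were all summits, a shorter list of top summits, scores of at least 5, ties kept or dropped (chosen after seeing the data), extensions of 100 and 500 bp, regions in 3 or more libraries, adjustment over all regions, log2 ranks, permutation in place of limma, windows from 2 kb upstream or 1 kb around starts, summits within 500 bp merged, no filter on genes, Ctrl and Case mice 1 to 5 as pairs, and each mouse left out.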

Additional observations from a re-analysis of the deposited data

Results flagged for a closer look

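Within each group, 48 sets of values at these genes were examined for a sample far from its nearest neighbour relative to the range of the group, and 6 stood out. A rate of 1 in 20 would give 2.40, but whether that rate holds for small whole numbers with ties was not tested. Case 3 had a percentile of 39 at the Hnf4a region 28.4 kb from the gene start, whereas the other Case mice lay between 80.9 and 92.5, and of 30.9 at the Pax8 region 6.3 kb from the start, whereas the others lay between 66.1 and 70.7. The remaining 4 were steps in small whole numbers. Ctrl 5 had 2.00 Hnf4g summits where the other Ctrl mice had 3, Ctrl 4 had 3.00 Emx2 summits where the others had 2, Dapa 12 had 2.00 Pax2 summits where the other Dapa mice had 4 or 5, and Dapa 10 had 27.0 summits over all 8 genes where the others had 26.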

How the results depend on the processing

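Alternatives were followed for 76 results: every summit count and rank tested at these genes, but presence at some regions only. Those regions were the Pax2 regions at the start and far intronic, the second Hnf4g intronic, the Lhx1 at 2.8 kb and the Emx2 upstream. The 76 are thus not all results at these genes, and all db/db mice against Ctrl overlaps with the comparisons of Case and of Dapa. Of the 76, 10 had an unadjusted p under 0.05, and none had an adjusted p under 0.05 in any alternative run (lowest 0.0999). Over 223 alternative values of those 10, the sign differed in 0, and 61 no longer had an unadjusted p under 0.05, 31 of them with 1 mouse left out. The Hnf4g difference in summits between Case and Ctrl was -1.0 with a shorter list of top summits (exact permutation p = 0.0909) and -0.500 within 1 kb of starts (exact permutation p = 0.242), and the Pax2 difference was 0.600 with scores of at least 5 (exact permutation p = 0.701).

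Over the genome, the number of regions with an adjusted rank difference was 40 in Case against Ctrl, 34 in Dapa against Ctrl and 72 in all db/db mice against Ctrl. In that order it was 17, 5 and 38 with all summits, 22, 5 and 26 with scores of at least 5, 289, 201 and 410 on log2 ranks, and 0, 0 and 109 with the exact permutation test in place of limma. With 5 against 6 mice the smallest p of the permutation test is 0.00433, which limits what adjustment over 7860 regions can call. Leaving out each mouse gave 17 to 105, 1 to 84 and 38 to 131. The cause of these shifts was not tested. Presence and summit counts gave 0 adjusted calls in every alternative run, as did Dapa against Case. The 5 same-numbered Ctrl and Case pairs did not deviate together (r from -0.06 to 0.04), and with the replicate block 0 regions were called in rank, while Hnf4g differed by -1.20 summits (exact sign-flip p = 0.0625, the smallest 5 pairs allow) and Pax2 by 1.80 (exact sign-flip p = 0.250). Depth is unknown, so a missing summit does not show closed chromatin.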
